A study of Drosophila melanogaster with 14 samples.

Results

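The response of the whole genome to the sesB1 mutation in virgin females was read from 7 of the 14 microarrays of the series, 4 of sesB1 females and 3 of wild-type females, picked by the genotype and sex given in their labels. sesB encodes an adenine nucleotide translocase, the carrier of the mitochondrial inner membrane that sends ATP out to the cell in exchange for ADP, and the gene, stress-sensitive B, is named for the sensitivity of its mutants to mechanical stress. By the description of the series the sesB1 females were F1 daughters of homozygous sesB1 mothers of Canton S background and sesB1 fathers of Oregon R background. The wild-type females were F1 daughters of the same cross made with wild-type parents, so both groups share a hybrid background in which the mutation had been outcrossed and kept over a balancer. The study also calls homozygous sesB1 females nearly sterile, so how mothers of that genotype gave enough daughters is not clear from the sources used here. If the mothers were mutant, an effect carried through the egg cannot be told apart from one of the daughters' own genotype. The flies were kept at 25°C, and RNA came from pools of whole virgin females grown for 2 days by the sample labels, or 1 day by the description of the series. The labels call the arrays biological replicates, and in what follows their values stand in the order of the array numbers.

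The ovary makes up a large part of a young female fly and adds its own RNA to that of muscle, gut, fat body and nervous system. It holds germline cells that replicate DNA and load the egg with maternal mRNA, and follicle cells that lay down first the vitelline membrane and then the chorion of the eggshell. A newly emerged fly also still carries fat body cells of the larva, which die over the first days of adult life and which make storage proteins such as hexamerins. In RNA of whole flies, fewer cells of a type and less RNA per cell cannot be told apart. Each value is a log2 signal that the authors' software had set relative to the median of its probeset (a set of probes for 1 transcript) over the 14 arrays, so it shows differences between arrays and not how abundant a transcript is.

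Among 18769 probesets, 1028 passed an adjusted p under 0.05 from limma with a change of at least 2-fold, which is 5.48% of those tested. Of these, 573 were higher (3.05%) and 455 lower (2.42%) in sesB1 females. With 1 probeset for each of 11982 genes, 492 genes were higher (4.11%) and 387 lower (3.23%), and for 876 of these 879 genes the sesB1 arrays and the wild-type arrays did not overlap. Without a fold change threshold 1951 genes were higher (16.3%) and 2980 lower (24.9%), around a median log2 change of 0.00. Arrays that do not overlap were common here, at 47.5% of all genes, so they carry little weight by themselves. The high side reached farther than the low side, with 83 genes past 4-fold higher against 30 past 4-fold lower.

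The 7 arrays were uneven in ways that touch particular gene classes. Arrays of sesB1 females correlated with each other at r from 0.855 to 0.956, and those of wild-type females at 0.967 to 0.982. Transcripts of the male accessory gland, which makes seminal fluid proteins, were listed with those of the ejaculatory tract. This list gave medians of -3.91, -3.46, -3.81 and -2.08 in sesB1 females against -3.90, -3.62 and -3.70 in wild-type females. Array 4 stood above the others, array 2 somewhat so. Acp53C14b, a seminal fluid gene, showed this most plainly, at -7.04, -3.93, -6.69 and -2.03 in sesB1 females and -7.01, -7.09 and -7.13 in wild-type females. Of 32 such genes, 26 were higher on array 4 and 20 on array 2 than on any of the other 5 female arrays, and of 42 genes of testis and sperm 27 and 22 were. The median difference of array 4 from the mean of the sesB1 males was -4.27 over the accessory gland list. Over the 1236 probesets with a signal in wild-type males 8-fold or more above that in wild-type females, the medians were -2.28, -2.19, -2.31 and -2.0 in sesB1 females against -2.35, -2.31 and -2.38 in wild-type females.

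Few male genes passed the test. In the fit 2 of 32 genes of the accessory gland and ejaculatory tract were higher and 0 lower (16.3% of all genes were higher). The list median was 0.74, and 0.04 without sesB1 arrays 2 and 4. The 2 were EbpIII at 0.78 and Gld at 0.69. EbpIII was higher on all 4 sesB1 arrays, at -0.28, -0.27, -0.52 and -0.38 against -1.20, -1.14 and -1.09 in wild-type females. For the testis list 1 of 42 genes was higher and 2 were lower, with a median of 0.21, and 0.03 without sesB1 arrays 2 and 4. The higher gene, Mst98Ca, rose by 1.64 (adjusted p = 0.0411 from limma), and by 0.68 without arrays 2 and 4, where it passed too. It did not pass without sesB1 array 2 alone or without any one of the wild-type arrays. After quantile normalization 0 testis genes were higher and 7 lower. Among the larger values of these lists, Acp53C14b, Acp53Ea, Ebp and Mst77F had log2 changes of 2.15, 1.76, 1.76 and 1.72 and did not pass (adjusted p = 0.17, 0.253, 0.164 and 0.119 from limma). Without arrays 2 and 4 the number of probesets called rose to 1385, 727 higher and 658 lower. The yolk protein gene Yp1, a marker of females, lay at 0.89 to 1.03 on the sesB1 arrays and 1.02 to 1.04 on the wild-type arrays, with little spread over the 7 arrays.

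**Figure D1:**
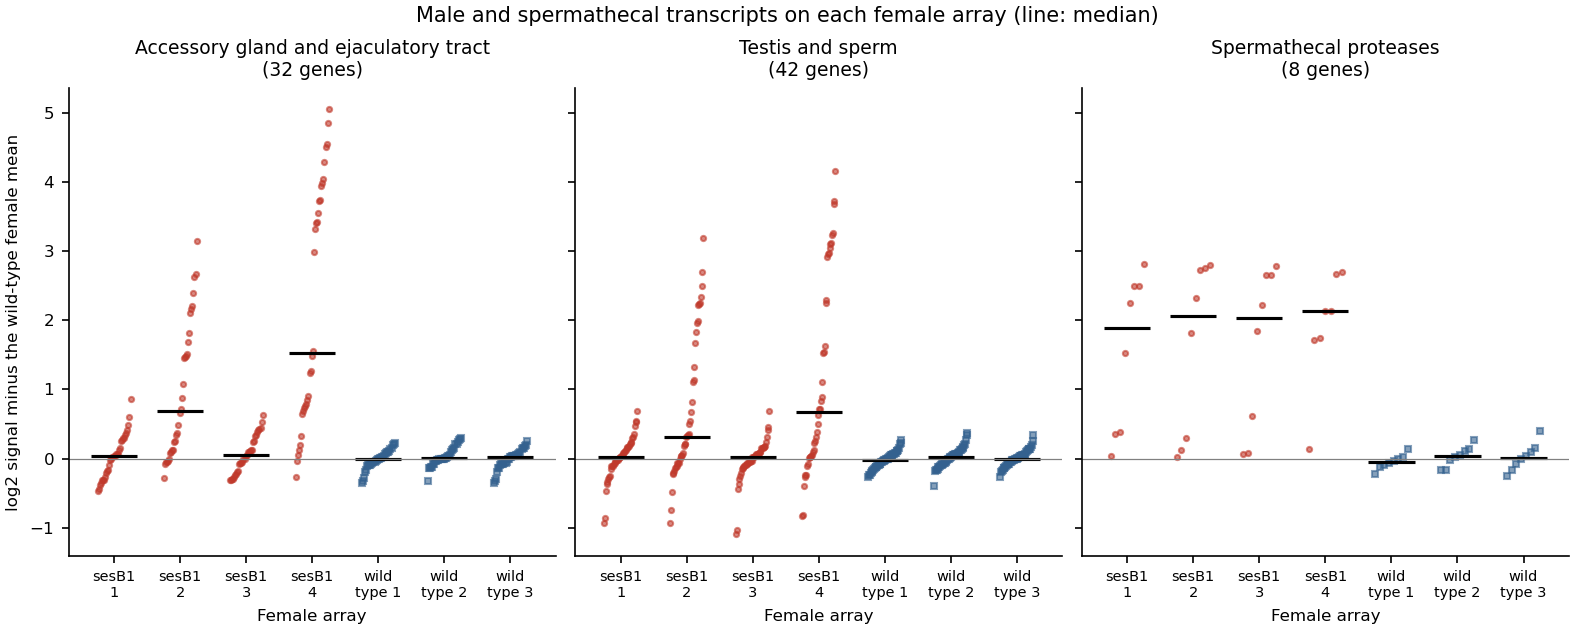
Log2 signal minus the mean of the wild-type female arrays (vertical axis) for each measured gene of 3 lists on each female array (horizontal axis), with the array median as a black line. Male transcripts stand out on sesB1 arrays 4 and 2, where the accessory gland medians reach 1.51 and 0.68, while the median of the spermathecal proteases is high on all 4 sesB1 arrays.

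Genes of the larval fat body headed the list of higher genes. Fbp2, whose sequence resembles alcohol dehydrogenase, lay at 1.19, 1.05, 1.19 and 0.89 in sesB1 females and at -6.24, -5.73 and -6.30 in wild-type females. Lsp2, a storage hexamerin of larval blood, gave 0.23, 0.14, 0.40 and 0.00 in sesB1 females against -6.39, -5.24 and -6.01 in wild-type females. The sesB1 arrays of both genes were tightly grouped and far above any wild-type array. Together with Fbp1, the receptor by which the fat body takes hexamerins back up, all 3 measured members passed, with log2 changes from 6.07 to 7.17. Obp99b, of the odorant-binding protein family of small secreted carriers, came between them, at 0.63, 0.68, 0.63 and 0.58 in sesB1 females against -6.18, -6.0 and -6.48 in wild-type females (a log2 change of 6.85 with standard error 0.11, adjusted p = 9.86e-09 in limma). Of 47 family members measured, 16 were higher (16.3% of all genes were) and 1 lower, with a median of 0.24. Obp56e, Obp56a and Obp99c followed at 2.19, 2.07 and 1.85.

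**Figure D2:**
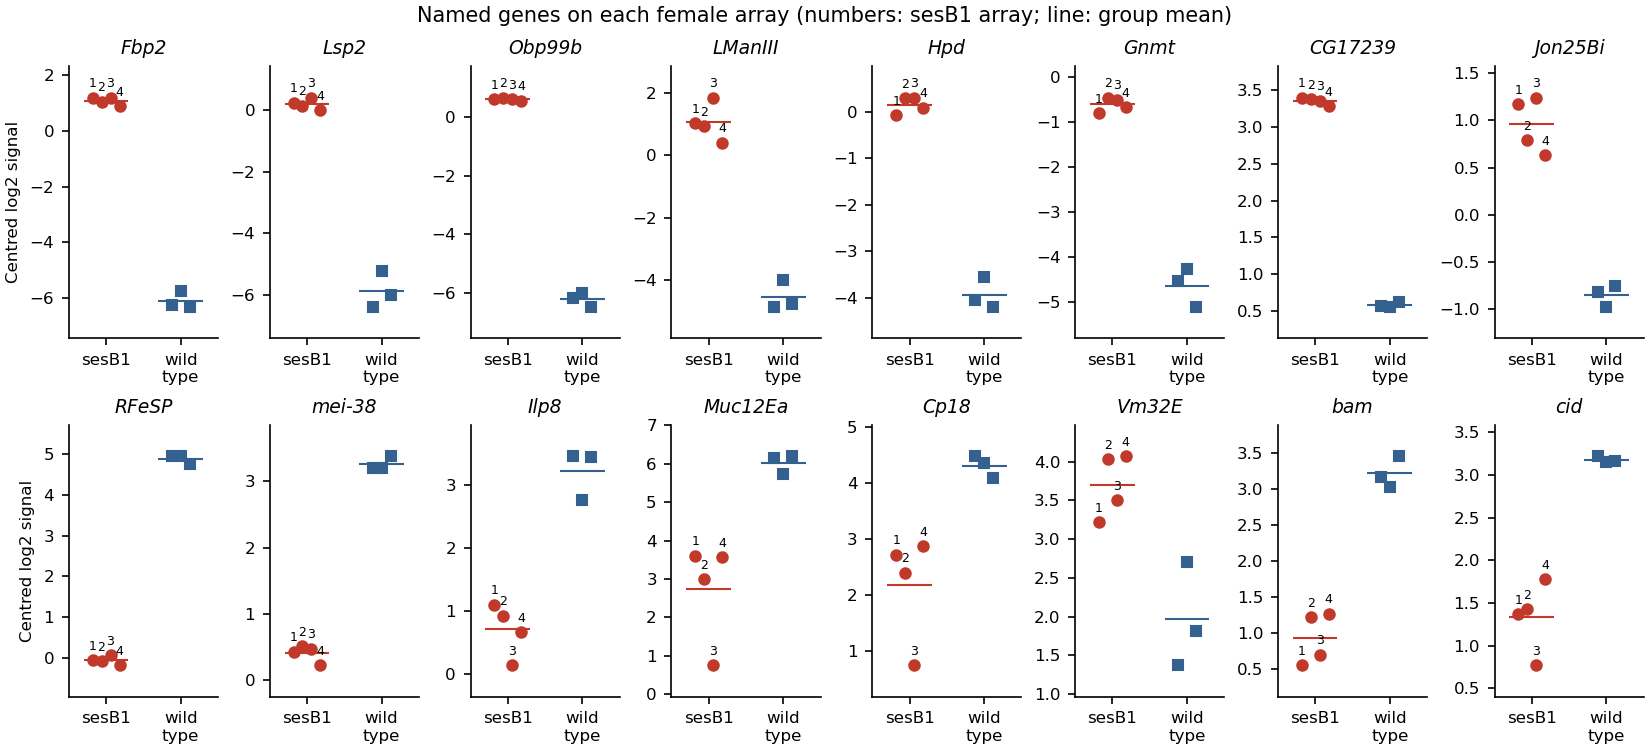
Centred log2 signal (vertical axis of each panel, scales differ) of 16 genes on the 4 sesB1 female arrays (red circles, numbered) and the 3 wild-type female arrays (blue squares), with group means as lines. In Muc12Ea, Cp18 and cid, sesB1 array 3 lies well below the other sesB1 arrays, at 0.75, 0.75 and 0.77, while Fbp2, Obp99b and RFeSP show little spread within a group.

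The remaining genes at the top had varied roles, and some have none described here. LManIII and LManV, lysosomal alpha-mannosidases that trim mannose from glycoproteins, rose by log2 changes of 5.59 and 3.75 (standard errors 0.32 and 0.29, adjusted p = 8.96e-06 and 4.64e-05 from limma). CG34166, a gene without a described role here, rose by 4.35, and by 4.97 without wild-type array 2, which lay at -3.05 beside -4.79 and -5.01. CG5953 rose by 4.98 on the probeset used, while its other probeset gave -0.19 (adjusted p = 0.118). Ugt37A3, a UDP-glycosyltransferase that couples sugars to foreign compounds, rose by 4.30, Cyp4e3, a cytochrome P450, by 3.56 and the cuticle protein gene Cpr49Ac by 3.62. CG18179, a predicted serine protease, and CG13324 rose by 3.92 and 3.42. All of these were higher on every sesB1 array than on every wild-type array, which the rule that picked them required.

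Each measured step of tyrosine breakdown rose. All 6 measured members of the list were higher in sesB1 females, with a median log2 change of 2.54, where 16.3% of all genes were higher. Tat, tyrosine aminotransferase, which takes the first step, lay at 0.27, 0.22, 0.21 and -0.08 in sesB1 females and at -2.78, -2.38 and -2.74 in wild-type females. Hpd, hydroxyphenylpyruvate dioxygenase and the step after it, lay at -0.08, 0.29, 0.30 and 0.08 against -4.04, -3.56 and -4.19 in wild-type females (a log2 change of 4.07 with standard error 0.16, adjusted p = 1.07e-06 in limma). The later steps rose too. hgo, which opens the ring of homogentisate, rose by 2.79, the maleylacetoacetate isomerases GstZ2 and GstZ1 by 1.26 and 0.69, and Faa, fumarylacetoacetase at the end of the pathway, by 2.30. GstZ1 was the smallest of the 6, at 0.46, 0.58, 0.56 and 0.49 in sesB1 females against -0.23, -0.27 and -0.01 in wild-type females, and its groups still did not overlap. The counts were also 6 of 6 after quantile normalization and without sesB1 array 3.

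Serine, glycine and one-carbon genes rose in part. Of 14 measured, 9 were higher and 1 lower, with a median of 0.53, where 16.3% of all genes were higher. Gnmt, glycine N-methyltransferase, which uses up methyl groups of S-adenosylmethionine, gave -0.81, -0.46, -0.51 and -0.67 in sesB1 females against -4.53, -4.28 and -5.11 in wild-type females. Its log2 change of 4.03 (standard error 0.18, adjusted p = 2.62e-06 from limma) was far above that of the other members. CG6415, whose product resembles the aminomethyltransferase of glycine cleavage, rose by 1.87, pug, an enzyme of folate metabolism, by 1.73, and aay, phosphoserine phosphatase of serine synthesis, by 1.14. Enzymes that make glucose moved with them. Pepck1, phosphoenolpyruvate carboxykinase, lay at -0.02, 0.23, 0.32 and 0.02 in sesB1 females and -2.06, -1.5 and -2.23 in wild-type females (log2 change 2.07, standard error 0.17), and fbp, fructose bisphosphatase, rose by 1.23. In that list of 10 genes around gluconeogenesis, lactate and acetyl-CoA, 7 were higher and 0 lower. AcCoAS, which makes acetyl-CoA from acetate, and the malic enzyme Men-b rose by 0.61 and 0.59. After quantile normalization the list gave 2 higher and 1 lower, and AcCoAS and Men-b did not pass.

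Several families of enzymes that split sugars from larger molecules rose. All 6 lysosomal alpha-mannosidases had positive values and 5 passed, with a median of 2.27, where 16.3% of all genes were higher. LManIII lay at 1.02, 0.92, 1.84 and 0.40 in sesB1 females and at -4.85, -4.01 and -4.78 in wild-type females. LManVI and LManI rose by 3.07 and 1.48. Of 11 alpha-glucosidases, which split maltose and sucrose, 6 were higher and 1 lower, with a median of 0.86. Mal-A3 gave 0.18, 0.37, 1.29 and -0.18 in sesB1 females against -2.94, -1.48 and -2.87 in wild-type females, and Mal-A4 gave 0.32, 0.42, 1.61 and -0.12 against -2.30, -1.56 and -2.50. In both genes sesB1 array 3 and wild-type array 2 were the highest of their groups, and in these 2 families sesB1 array 3 was the highest of all 7 arrays for 8 of 11 and 6 of 6 genes.

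Midgut proteases, and a list of lipases not confined to the gut, gave smaller medians. The counts below stand beside 16.3% higher and 24.9% lower of all genes. Of 26 midgut serine proteases 15 were higher and 1 lower (median 0.58), led by Ser8 at 2.40, Jon99Ci at 1.85, Jon25Bi at 1.80 and Jon25Bii at 1.70, the Jonah genes being chymotrypsin-like enzymes of the midgut. Jon25Bi lay at 1.17, 0.79, 1.24 and 0.63 in sesB1 females and at -0.81, -0.97 and -0.75 in wild-type females. Of 15 lipases 9 were higher and 1 lower (median 0.57). CG17192 and CG8093, both predicted lipases, rose by 2.63 and 2.88, the second by 3.47 without wild-type array 2, where it lay at -1.20 beside -2.86 and -3.10. The vacuolar proton ATPase, which acidifies lysosomes and gut compartments, had 14 higher and 1 lower of 31 subunits with a median of only 0.24, VhaSFD for instance at 0.49.

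Detoxification families widened toward higher values. Of 81 cytochrome P450 genes 44 were higher and 8 lower, 21 of them past 2-fold higher and 1 past 2-fold lower. The shares over all genes were 16.3% higher and 24.9% lower, and 4.11% past 2-fold higher and 3.23% past 2-fold lower. Cyp6a23 lay at 0.09, 0.19, 0.66 and -0.09 in sesB1 females and at -3.0, -2.84 and -2.89 in wild-type females (a log2 change of 3.12 with standard error 0.16, adjusted p = 5.21e-06 in limma). Cyp6a8 and Cyp309a1 rose by 2.78 and 2.76. Among 34 glutathione S-transferases 17 were higher and 5 lower, with GstD2 at 2.09, GstE3 at 1.75 and GstE1 at 1.43, and among 35 UDP-glycosyltransferases 12 were higher and 2 lower, with Ugt35C1 at 2.89. After quantile normalization the counts were 27 and 3 for P450 genes, 11 and 5 for glutathione S-transferases and 6 and 2 for UDP-glycosyltransferases. Over all 11982 genes 1302 were then higher and 1392 lower. Antioxidant enzymes divided, with 4 of 11 higher and 3 lower, the lower ones close to the share of all genes. Catalase (Cat), which breaks down hydrogen peroxide, rose by 0.78, while Sod3, an extracellular superoxide dismutase, fell by 0.85 with its other probeset at -0.83 (Sod3 did not pass after quantile normalization).

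Of 8 spermathecal proteases 5 rose and 0 fell, where 16.3% of all genes were higher. The spermathecae are the sperm stores of the female tract, and their gland cells secrete serine proteases. CG17239 gave 3.40, 3.38, 3.36 and 3.28 in sesB1 females against 0.57, 0.56 and 0.62 in wild-type females (a log2 change of 2.77 with standard error 0.07, adjusted p = 5.85e-08 in limma). CG9897 gave 3.85, 4.08, 4.00 and 4.02 against 1.12, 1.18 and 1.75 in wild-type females. Ser12 and Send1 rose by 2.64 and 2.23, Ser12 from 3 sesB1 arrays because its value on array 4 was missing. All 5 were past 2-fold (4.11% of all genes were past 2-fold higher), and the other 3 did not pass. The count stayed at 5 after quantile normalization and without sesB1 array 3, and was 6 without arrays 2 and 4, the arrays with more male transcripts.

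Genes of DNA replication and mitosis fell nearly without exception. Of 34 measured, 33 were lower and 0 higher, 24 of them past 2-fold, with a median of -1.19, where 24.9% of all genes were lower. cid, the histone H3 variant of centromeres, lay at 1.37, 1.43, 0.77 and 1.78 in sesB1 females and at 3.22, 3.15 and 3.17 in wild-type females. pim, the securin that guards sister chromatids until anaphase, lay at 0.88, 0.91, 0.09 and 1.25 against 2.53, 2.36 and 2.81 in wild-type females. Every sesB1 array was below every wild-type array, and array 3 lay lowest. thr, a partner of the separase of sister chromatids, fell by 1.70 and Orc1, the large subunit of the origin recognition complex, fell by 1.65. Over the list array 3 was the lowest of the 7 arrays for 32 of 34 genes. After quantile normalization 17 were lower and 0 higher, with a median of -0.48.

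Germline genes of other roles were called lower more often than higher on the deposited scale. mei-38, a microtubule protein of the female meiotic spindle, lay at 0.43, 0.51, 0.47 and 0.22 in sesB1 females and at 3.20, 3.20 and 3.38 in wild-type females (a log2 change of -2.85 with standard error 0.10, adjusted p = 3.67e-07 in limma). bam, which turns a stem cell daughter toward egg formation, lay at 0.55, 1.22, 0.70 and 1.27 against 3.17, 3.02 and 3.45 in wild-type females. nod, a kinesin-like protein that holds chromosomes without crossovers, and mei-S332, a protector of centromere cohesion, fell by 1.43 and 1.37. In this list of stem cell and meiosis genes 11 of 21 were lower and 0 higher, where 24.9% of all genes were lower and 16.3% higher. Of 27 genes of the piRNA pathway, which silences transposons in the germline through small RNAs, 22 were lower and 0 higher, with a median of -0.67. vret and krimp, Tudor proteins of the germline granules, fell by 1.33 and 1.15, squ fell by 1.20 and Hen1, which methylates the ends of piRNAs, fell by 1.17. Among 33 maternal patterning genes 22 were lower and 3 higher (median -0.61). png, a kinase of the egg-to-embryo transition, fell by 1.24, and bcd, the anterior determinant, fell by 1.21 on one probeset and 1.25 on the other. hb, a gap gene with maternal mRNA, fell by 1.18. The first probeset of exu followed the male transcripts, at -4.66, -3.25, -5.11 and -2.18 in sesB1 females against -4.85, -5.04 and -4.64 in wild-type females, while its other probeset fell by 0.99.

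These germline counts depended on the scale. Quantile normalization of the 7 arrays gave 3 higher and 6 lower in the stem cell and meiosis list (median -0.23). It left 4 piRNA genes higher and 3 lower with a median of 0.00, and 4 patterning genes higher and 3 lower with a median of -0.07. When each probeset was first centred on its female mean, the same normalization gave 0 higher and 20 lower for the piRNA list. It then gave 3 higher and 21 lower for patterning, and 0 higher and 10 lower for stem cell and meiosis genes. krimp, bcd and hb did not pass under plain quantile normalization, with values of -0.31, -0.27 and -0.34, whereas bam, nod and mei-38 did, at -1.53, -0.64 and -2.18.

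Chorion genes were lower on the deposited scale. Of 8 measured genes of this outer eggshell, made late by follicle cells, 6 were lower and 0 higher, with a median of -1.46 (24.9% of all genes were lower). Cp18 lay at 2.72, 2.40, 0.75 and 2.87 in sesB1 females and at 4.47, 4.36 and 4.09 in wild-type females (a log2 change of -2.12 with standard error 0.44, adjusted p = 0.00546 in limma). Cp19, Cp7Fc, Cp36 and Cp38 fell by 1.76, 1.48, 1.20 and 1.19. Cp16 fell by 1.82, and did not pass without any one of the wild-type arrays (values from -1.92 to -1.72), and Cp15 had a value of -1.44 that did not pass (adjusted p = 0.0752). Array 3 was the lowest array for 7 of the 8 genes, and without it the median was -1.12 and 7 genes were lower. Under quantile normalization 0 of 8 passed in limma in either direction and 3 had an unadjusted p under 0.05, with a median of -0.60 (of all genes 1302 were then higher and 1392 lower), and 7 were lower when probesets were first centred on the female mean.

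Genes of the vitelline membrane and early eggshell went both ways, 6 of 15 higher and 6 lower, beside 16.3% higher and 24.9% lower of all genes. Vm32E, a vitelline membrane protein, lay at 3.22, 4.03, 3.5 and 4.07 in sesB1 females and at 1.37, 2.71 and 1.81 in wild-type females (a log2 change of 1.74 with standard error 0.32, adjusted p = 0.0026 in limma). psd, another vitelline membrane protein, rose by 1.21, Vm26Aa by 0.55 and ndl, a serine protease of the early eggshell, by 1.09. Vm26Ac rose by 0.82, and did not pass without sesB1 array 2, wild-type array 1 or wild-type array 3 (0.73, 0.64 and 0.81) or without sesB1 arrays 2 and 4 (0.52). In the same list Femcoat, needed for the chorion, lay at 3.28, 2.51, 1.15 and 3.37 against 5.11, 4.80 and 4.34 in wild-type females, and yellow-g and yellow-g2, of the yellow family, both fell by 1.77, yellow-g not passing without wild-type array 1 (-1.62). Pxt, a peroxidase of follicle cells, fell by 1.27. After quantile normalization 9 were higher and 1 lower, and Femcoat, yellow-g and yellow-g2 did not pass.

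The yolk protein genes did not pass on the deposited scale. Yp3 lay at 1.69, 1.72, 1.79 and 1.72 in sesB1 females and at 1.91, 1.88 and 1.83 in wild-type females (log2 change -0.15, adjusted p = 0.161), and Yp1 and Yp2 had values of -0.07 and 0.08 that did not pass either. yl, the yolk receptor of the oocyte, had -0.32 (adjusted p = 0.0865). These values turn with the normalization. After plain quantile normalization Yp1, Yp2, Yp3 and yl had log2 changes of 0.43, 0.77, 0.66 and 0.55, all called higher. With the female mean centred first they had -0.05, 0.10, -0.14 and -0.31, and none passed. The lipoprotein genes apolpp and Apoltp, made by the fat body, rose by 0.73 and 0.86, apolpp not passing after quantile normalization (0.33).

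**Figure D3:**
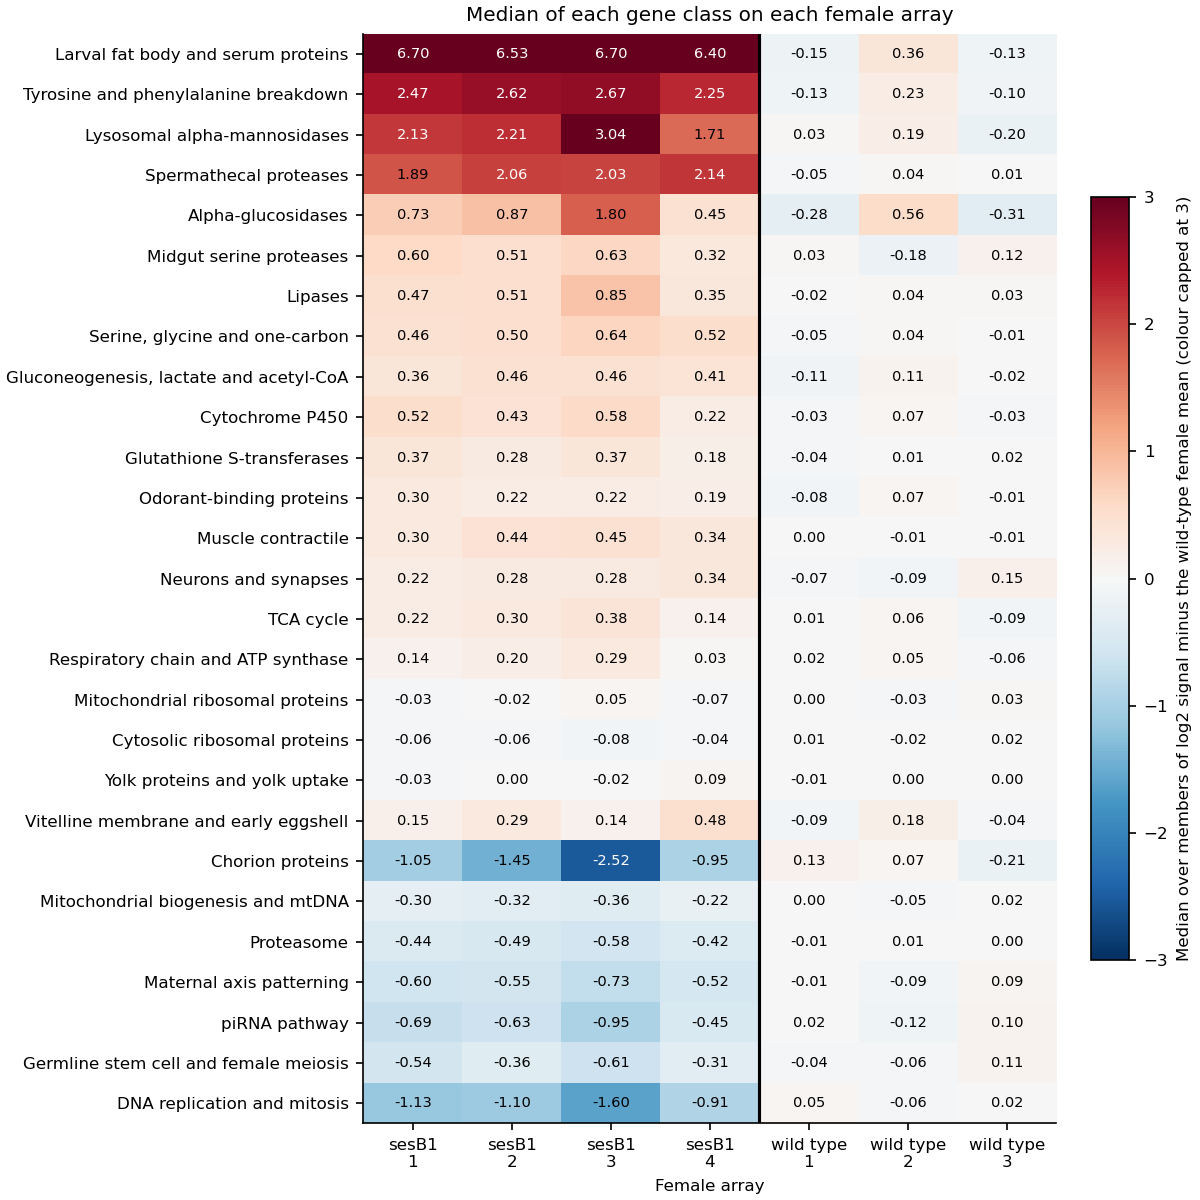
Median over the measured members of each gene class (rows) of log2 signal minus the wild-type female mean, for each female array (columns, sesB1 left of wild type), with the value in each cell. Chorion medians are -1.05, -1.45, -2.52 and -0.95 on the sesB1 arrays, and array 3 holds the extreme value in most rows.

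Mucin-like genes and genes of unknown role with the same array pattern made up much of the low end. Muc12Ea lay at 3.60, 3.00, 0.75 and 3.56 in sesB1 females and at 6.16, 5.73 and 6.19 in wild-type females, a log2 change of -3.30 that was -2.64 without array 3. Mur11Da, a mucin-related gene, lay at 2.18, 1.49, 0.18 and 2.75 against 4.51, 4.11 and 3.97 in wild-type females. CG32642 fell by 2.77, CG31926 fell by 2.39 and CG31928 fell by 2.35. CG15721 fell by 2.66, and by 2.05 without array 3. In each of these 6 genes array 3 was the lowest, and none of the 6 passed after quantile normalization, with values from -1.87 to -1.32. CG31661, CG13113 and CG12716 fell by 2.43, 2.36 and 2.31 and passed there too. Ilp8, a relaxin-like peptide of the insulin family, lay at 1.10, 0.93, 0.14 and 0.67 in sesB1 females and at 3.45, 2.76 and 3.44 in wild-type females (log2 change -2.51, standard error 0.25). Ilp7, of the same family, fell by 1.23, while Akh, the adipokinetic hormone that frees stored fuel, rose by 0.73.

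Some of the steepest falls were of genes with little spread within a group. RFeSP, the Rieske iron-sulfur subunit of respiratory complex III, lay at -0.06, -0.08, 0.06 and -0.19 in sesB1 females and at 4.95, 4.95 and 4.76 in wild-type females (a log2 change of -4.95 with standard error 0.09, adjusted p = 1.23e-08 in limma). Its other probeset gave 0.18 (adjusted p = 0.262), so the 2 probesets disagree. CG8289 lay at -0.18, 0.18, -0.29 and -0.45 against 4.21, 4.34 and 4.47 in wild-type females. gkt, a tyrosyl-DNA phosphodiesterase of DNA repair, fell by 2.99 and 1.53 on 2 probesets and had -0.09 on the third. dia, a formin that builds the ring of cytokinesis, lay at -0.06, -0.15, -0.24 and 0.06 against 2.72, 2.39 and 2.94 in wild-type females. Disagreement was frequent: of 66 genes with several probesets and at least 1 called past 2-fold, 58 had another that was not called so, and 5 had probesets called in both directions.

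**Figure D4:**
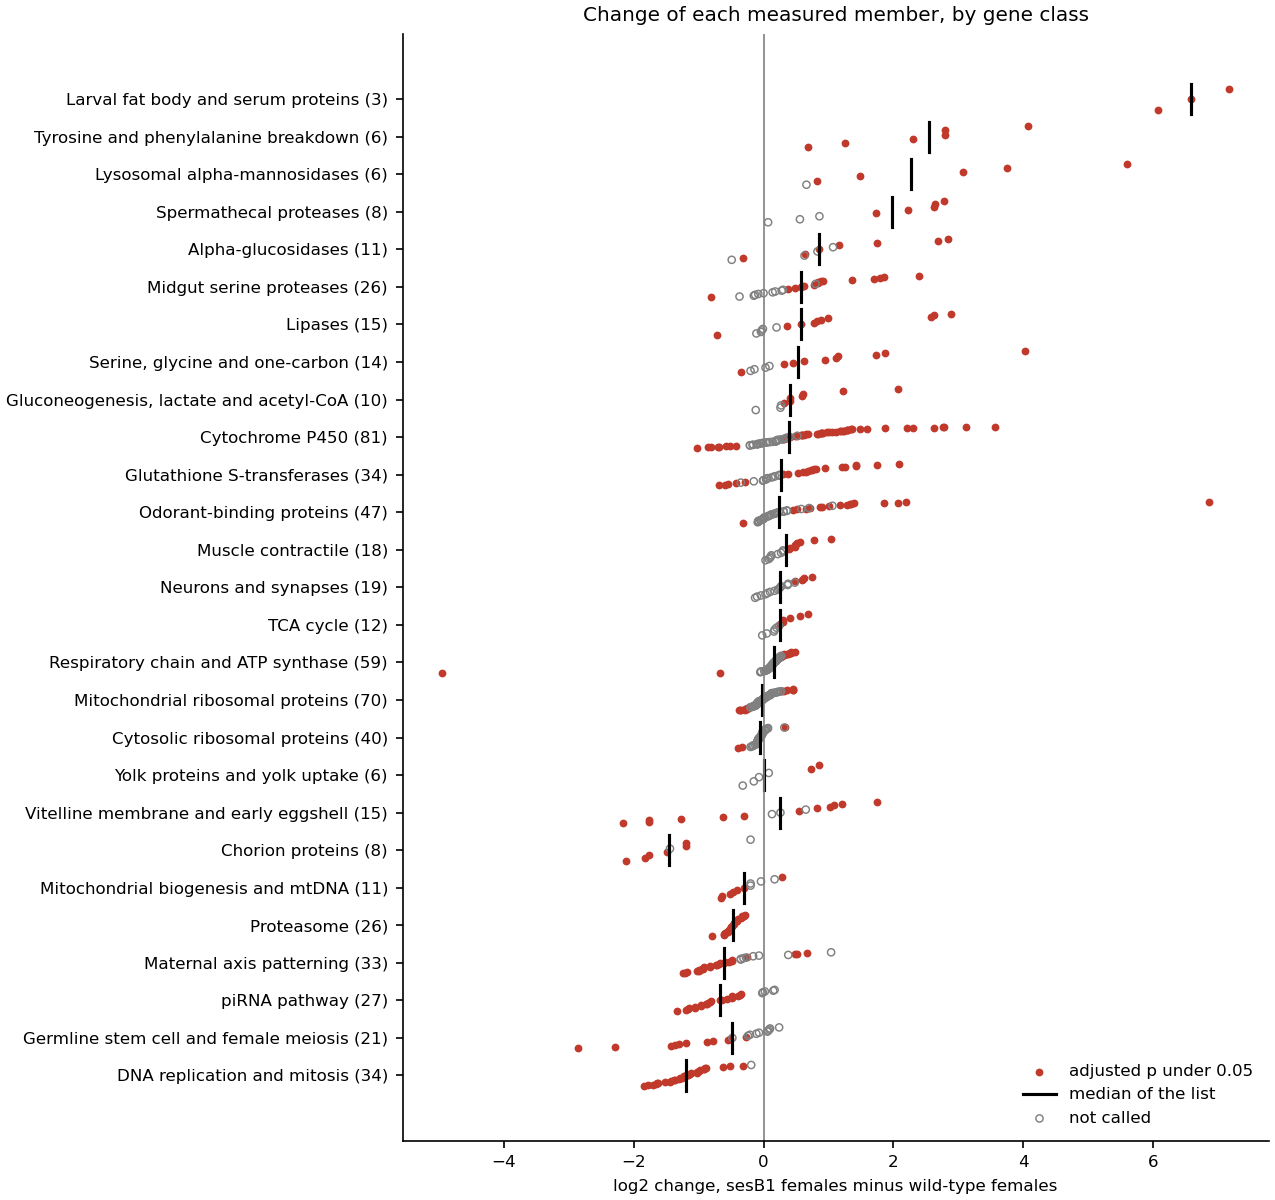
Log2 change of each measured gene (points) by gene class (rows, number of genes in brackets), filled where the adjusted p was under 0.05, with list medians as black bars. Larval fat body genes lie farthest right, with a median of 6.58, and replication and mitosis genes lie left of 0 with a median of -1.19. The ribosomal proteins that were measured cluster at 0.

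Genes of mitochondrial energy conversion changed little by comparison. Of 59 subunits of the respiratory chain and ATP synthase 12 were higher (16.3% of all genes were higher) and 2 lower, with a median of 0.16. Apart from RFeSP the values ran no farther than -0.67 for ND-B8, of complex I, and 0.49 for COX7A, of cytochrome oxidase. Within the list array 3 was the highest of the 7 arrays for 50 of 59 genes. Of 12 TCA cycle genes 6 were higher and 0 lower (median 0.25), among them Idh, isocitrate dehydrogenase, at 0.68 and ScsbetaA, of succinyl-CoA synthetase, at 0.56. Under quantile normalization the counts were 2 and 2 for the respiratory chain and 1 and 0 for the TCA cycle, in which ScsbetaA did not pass. Dic1, a dicarboxylate carrier, lay at -0.01, 0.05, 0.11 and 0.01 in sesB1 females against -0.75, -0.75 and -0.75 in wild-type females. It was one of 5 members of the mitochondrial carrier family higher out of 17, with 1 member of the family lower.

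Of 11 genes of mitochondrial biogenesis and mitochondrial DNA, 6 were lower and 1 higher, with a median of -0.30 (24.9% of all genes were lower). After plain quantile normalization 1 was lower and 1 higher, with a median of -0.03. With the female mean centred first 6 were lower and 1 higher, with a median of -0.27. On the deposited scale mtSSB, which coats single-stranded mitochondrial DNA, mtDNA-helicase and PolG1, the catalytic subunit of its polymerase, fell by 0.51, 0.64 and 0.47. Under plain quantile normalization mtSSB and mtDNA-helicase had values of 0.30 and 0.08 and none of these 3 passed. Proteins of the mitochondrial ribosome had 6 higher and 10 lower of 70 (median -0.02), and 12 higher and 0 lower after quantile normalization (median 0.15), with mRpS33 at 0.46 and mRpS23 at -0.38 on the deposited scale. For cytosolic ribosomal proteins 1 of 40 was higher and 2 were lower, and a further 52 had no probeset of their own. Beta-oxidation had 4 of 12 higher and 0 lower, with the acyl-CoA oxidase Acox3 at 0.86. Glycolysis had 3 of 16 higher, close to the 16.3% of all genes, and 2 lower (0 and 2 after quantile normalization). Fatty acid synthesis and elongation had 8 of 15 higher and 3 lower, and 5 and 4 after quantile normalization. Lpin, a phosphatidate phosphatase, and the elongase bond rose by 1.03 and 0.89, while the elongase Elo68beta fell by 1.09.

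Proteasome subunits were lower without exception on the deposited scale. All 26 proteasome subunits measured were lower, none past 2-fold, with a median of -0.47, where 24.9% of all genes were lower. Prosalpha6 lay at 0.35, 0.34, 0.27 and 0.42 in sesB1 females and at 1.08, 1.09 and 1.27 in wild-type females. Prosalpha7 fell by 0.61. After quantile normalization 9 were lower and 0 higher. Of 18 muscle genes 9 were higher (16.3% of all genes were) and 0 lower (median 0.35), with the troponin T gene up at 1.04 and the myosin light chain gene Mlc2 at 0.56, and of 19 neuronal genes 5 were higher and 0 lower (median 0.26), with Gad1, which makes the transmitter GABA, at 0.74 and nSyb, a synaptic vesicle protein, at 0.60. Gad1 and nSyb did not pass after quantile normalization, and those lists then gave 4 higher and 0 lower for muscle and 0 higher and 1 lower for neurons.

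Stress and immune genes measured here showed no common direction. Of 12 heat shock and chaperone genes 1 was higher and 2 lower. A further 12 of that list, among them Hsp22, Hsp23 and Hsp83, had no probeset of their own and were not counted. The study reports Hsp22 as upregulated. Hsp26 and Hsp27, small heat shock proteins that are also made in the ovary, fell by 1.40 and 1.31, Hsp27 not passing after quantile normalization (-0.67). Hsp26 lay at 0.87, 0.94, 0.39 and 1.07 in sesB1 females against 2.26, 2.32 and 2.10 in wild-type females. Of 4 Turandot stress peptides 0 passed in limma and 1 had an unadjusted p under 0.05, with a median of 0.22, and TotC was uneven within both groups, at -0.47, -1.06, 2.27 and -1.90 in sesB1 females and -2.06, -0.73 and -2.49 in wild-type females. Among 22 antimicrobial peptides 7 were higher (16.3% of all genes were) and 1 lower, and 3 and 2 after quantile normalization. Def, a defensin, rose by 1.42. Mtk, metchnikowin, lay at 1.68, -1.13, 0.11 and 1.27 against -1.84, -1.17 and -1.68 in wild-type females, and its log2 change of 2.05 did not pass without wild-type array 1 or 3 (1.91 and 1.99), with the female mean centred before quantile normalization (1.52) or after plain quantile normalization (1.96). Of 7 peptidoglycan recognition proteins, sensors and scavengers of bacterial wall, 3 were higher and 1 lower, with PGRP-SB1 at 2.18 and PGRP-SC2 at 1.62. Of 105 cuticle proteins 18 were higher, close to the 16.3% of all genes, and 1 lower (median 0.09). After quantile normalization 10 were higher and 2 lower. Cpr100A at 1.86 was one of 7 past 2-fold higher on the deposited scale.

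The mutated gene lies on the X chromosome, and its own mRNA did not pass. sesB lay at -0.14, -0.07, 0.04 and -0.14 in sesB1 females and at -0.06, -0.14 and -0.09 in wild-type females (log2 change 0.02, adjusted p = 0.908). The mutation changes an amino acid, so the level of its mRNA does not check the labels. Ant2, the adjoining gene for a second translocase, lay at -1.79, -1.73, -1.89 and -1.58 against -2.19, -2.14 and -1.95 in wild-type females (log2 change 0.35, adjusted p = 0.025). It did not pass after quantile normalization (0.17), with array medians centred (0.31), without sesB1 array 2 (0.34), wild-type array 1 (0.30) or wild-type array 2 (0.32), or without sesB1 arrays 2 and 4 (0.25). Of the 20 measured genes on each side of sesB, 18 of 40 passed without a fold threshold (45%, beside 41.2% of all genes), and 3 passed at 2-fold (7.5%, beside 7.34%). The nearest that passed were BTBD9 at -0.42, CG15211 at 0.53, CG15209 at 0.99 and CG32669 at 0.74, and those past 2-fold were CG32687 at 1.13, Myo10A at 1.05 (its other probeset at 0.02, adjusted p = 0.903) and Hmr, a chromatin protein known from hybrid incompatibility, at -1.04. On the X as a whole 803 of 1873 genes passed (42.9%), 272 higher and 531 lower.

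The sex of the flies mattered for some of these changes. Fitted over all 14 arrays, the test of a sesB1 effect that differs between females and males passed for 4238 genes (35.4%) or 5183 probesets (27.6%), and for 1781 probesets after quantile normalization. This fit also holds 2 male arrays with female transcripts. Yp1 lay at -8.92, -8.92, -8.82 and -2.40 in sesB1 males and -8.81, -0.89 and -9.10 in wild-type males. The count was 4641 probesets without sesB1 male array 4 and 5054 without wild-type male array 2. Gnmt rose by 4.03 in females and 0.53 in males, and mei-38 had values of -2.85 in females and -0.17 in males. Of 26 midgut proteases 15 were higher and 1 lower in females against 6 and 8 in males, with 17 interactions (15 after quantile normalization), and Jon25Bi rose by 1.80 in females but fell by 0.81 in males. Of 70 mitochondrial ribosomal proteins 53 were higher and 0 lower in males, with 49 interactions (29 after quantile normalization). Over all 11982 genes 1716 were higher and 1649 lower in males, and 1490 interactions passed after quantile normalization. Fbp1 rose in both sexes, by 6.58 and 5.89, without a called difference between them (adjusted p = 0.264), and RFeSP had -4.95 in females and -4.99 in males.

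**Figure D5:**
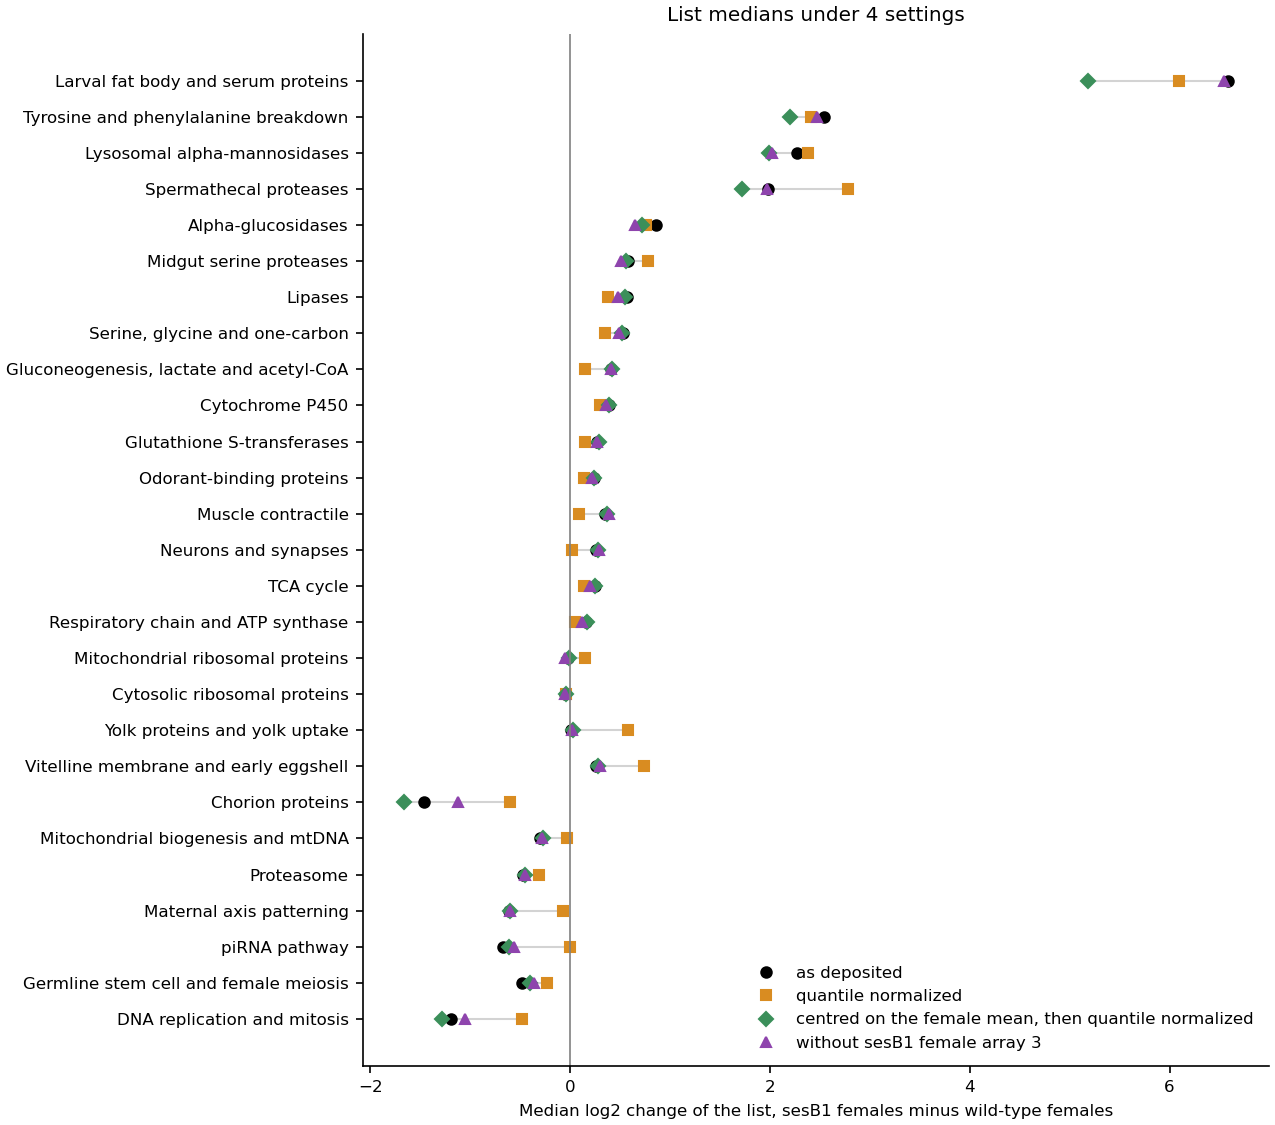
Median log2 change of each gene class (rows) under 4 settings: as deposited (black circles), after quantile normalization (orange squares), after centring on the female mean and quantile normalization (green diamonds), and without sesB1 array 3 (purple triangles). The piRNA median moves to 0.00 under plain quantile normalization alone, and the tyrosine breakdown median stays between 2.20 and 2.54.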

How the data were processed

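Total RNA of whole flies was hybridized to Affymetrix Drosophila 2.0 arrays. According to the methods, the authors normalized the raw data in Genespring GX, with a version, summarisation and filters not given in the sources used here.

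Each deposited cell is a score on a log2 scale for 1 probeset and array, centred by the authors' processing on the median of the 14 arrays. The table held 30 spreadsheet date serials among 265328 cells (12 on the female arrays), recognised by a size above 100 and set missing. Array medians of the females differed by at most 0.127, and the values were used as deposited. Centred values do not show how far a signal lay above background, and the number of arrays limits the precision.

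From 18952 probesets 183 controls were left out. A single symbol was given for 13647 of the others, several for 402 and none for 4720, and 13544 matched a current RefSeq gene. Where a gene had several probesets, that with the first identifier stood for it, with suffixes ranked _at, _a_at, _s_at, _x_at. The 4 sesB1 and 3 wild-type female arrays were fitted with limma 3.58.1 (lmFit, eBayes) in R 4.3.3, with Benjamini-Hochberg adjustment over 18769 probesets, and tables were handled in Python 3.11.15 with pandas 2.3.3. A call needs an adjusted p under 0.05, with a 2-fold change only where stated, and list members were counted with no fold threshold. In data simulated for this comparison over 18769 probesets, 96 of 100 changes of 1.5 and 100 of 100 of 3.0 on the log2 scale were found. The simulated noise was independent between probesets and arrays. It held no shift shared by many genes of an array, so it does not show how reliable calls are under such shifts.

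The groups, lists and genes were chosen with earlier results of these data known. Named genes were the 15 highest and 15 lowest with arrays that do not overlap, from each list at most 4 genes of largest change, sesB and Ant2, and called genes within 5 measured genes of sesB. GstZ1, GstZ2, Cp15, Cp36, Cp38, Vm26Aa, Vm26Ac, psd, ndl, Pxt, CG32687, Myo10A, Hmr and the values of further probesets were added after their values were seen. So were EbpIII and Gld, which the checks of named genes leave out. Several listed genes also stand in the study's own tables for these samples. Alternatives were quantile normalization (plain, or after centring on the female mean), centring of array medians, a joint fit of 4 groups, array weights, robust variances, the methods' t-test, other fold thresholds, the mean of a gene's probesets, the replicate block and the omission of arrays. Quantile normalization after centring, for lists and single genes, was chosen after seeing the data. Gene order came from RefSeq, and no sequences were used here.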

Additional observations from a re-analysis of the deposited data

Results flagged for a closer look

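In females the 4 sesB1 arrays of each named gene were searched for a value far from the others, which chance alone gives in about 1 of 20 such groups. CG5953 had its highest value of 0.93 on array 4, beside 0.77 to 0.79 on the others. Sod3 had its lowest value of 0.21 on array 3, beside 0.54 to 0.60 on the others. Array 3 also lay lowest for 32 of 34 replication and mitosis genes, 24 of 26 proteasome subunits and 7 of 8 chorion genes.

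Of 10 named genes set beside their male values, 8 had a sesB1 effect that differed between the sexes by the interaction test of limma. Of all genes 35.4% passed that test. Named genes were chosen with earlier results known, so the count is not a rate for other genes. The differences, females minus males, were 2.16 for Obp99b, 2.35 for Lsp2, 3.5 for Gnmt, 4.29 for CG18179, 2.61 for Jon25Bi, -2.68 for mei-38, -0.58 for mRpS23 and -0.92 for Cyp6a8. After quantile normalization those of Obp99b (0.24, adjusted p = 0.821 in limma), Lsp2 (-0.30, adjusted p = 0.78, with the sign turned) and mRpS23 (-0.33, adjusted p = 0.142) did not pass, and the other 5 did. In males the log2 changes were 4.69 for Obp99b, 3.72 for Lsp2, -0.36 for CG18179, 0.21 for mRpS23 and 3.70 for Cyp6a8. The male arrays that hold female transcripts enter these values, and their part was not tested.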

How the results depend on the processing

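The count of 1028 probesets moved to 573 after quantile normalization (445 higher, 128 lower), so that the share of higher calls was 77.7% in place of 55.7%, and 500 probesets were shared, 48.6% of the first list and 87.3% of the second. With probesets centred on the female mean first, 999 were called and 933 shared. The plain form acts on values centred over both sexes, so differences between the sexes enter it. Thresholds of no fold, 1.5-fold and 4-fold gave 6050 (2506 higher, 3544 lower), 3038 (1402, 1636) and 136 (101, 35). Leaving out each array in turn gave 866 to 1219 in all, 511 to 667 higher and 355 to 552 lower. The interaction count of 5183 was 1781 after quantile normalization and 4315 to 5624 without single arrays. Joint fit, array weights, robust variances, the methods' t-test (978), median centring, and the omission of date serials or of sesB1 arrays 2 and 4 stayed within 1.5 times.

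The replicate numbers did not pair the samples: deviations of same-numbered arrays correlated at 0.09, -0.11 and -0.15, and no sesB1 array correlated best with its own number. The replicate block gave 1218 probesets (665 higher, 553 lower) and 4821 interactions, and Mtk (1.78) and Ant2 (0.29) did not pass with it.

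Of 151 named genes, which leave out EbpIII, Gld and Mst98Ca, 113 kept their direction and side of the threshold after quantile normalization. Of the 151, 32 lost the call, 1 gained it and 5 reversed. The 5 reversed were mtSSB (0.30), mtDNA-helicase (0.08), yl (0.55), Yp3 (0.66) and Yp1 (0.43). With the female mean centred first 149 were the same. Without single arrays 5 called genes of the 151 lost the call, Cp16, yellow-g, Vm26Ac, Mtk and Ant2. Array 3 of sesB1 was the extreme array for most members of some reproductive and digestive lists. It was also the highest for 50 of 59 respiratory chain genes. Of 7 spermathecal proteases with complete values it was the highest for only 1. Male transcripts moved with arrays 2 and 4. The part of these 3 arrays in the smaller changes was not tested, and only differences between arrays can be read from centred values.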
